A study of Mus musculus with 6 samples.

Results

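The muscle calcium handling genes followed here were the 10 genes Sln, Pln, Atp2a1, Atp2a2, Ryr1, Casq1, Casq2, Pvalb, Jph1 and Cacna1s. They were found as every probe set, a group of short probes for a transcript, to which the array's annotation gives one of these symbols and no other. All 10 genes were on the array, with 20 probe sets of the 45037 tested, and 5 genes had 1 probe set each. The RNA came from bone callus, the repair tissue that bridges a fracture. The mice were 12 weeks old and of a C57BL6J x 129SV mixed background, and the tibia of each had been cut and held by an intramedullary rod 14 days earlier. The 3 null arrays carried the genotype Cyp24a1 (-/-), and the 3 control arrays were from heterozygous littermates, Cyp24a1 (+/-), so the controls also lack 1 working copy. Cyp24a1 is the 24-hydroxylase that acts on vitamin D metabolites, and the comparison asked how its loss alters gene expression in healing bone. The labels do not say that each array stands for a separate mouse, so the p-values rest on the spread among these arrays alone.

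In skeletal muscle, an action potential reaches the voltage sensor of the transverse tubule, the dihydropyridine receptor, whose pore subunit is encoded by Cacna1s. The sensor opens the ryanodine receptor Ryr1 in the facing sarcoplasmic reticulum, calcium held by calsequestrin leaves the store, and the fibre contracts. Relaxation follows when the SERCA pumps Atp2a1 and Atp2a2 return calcium to the store, with sarcolipin (Sln) and phospholamban (Pln) as small membrane inhibitors of the pumps and parvalbumin (Pvalb) as a soluble buffer. Atp2a1, Casq1 and Pvalb are the forms typical of fast fibres, whereas Atp2a2, Casq2 and Pln are typical of slow fibres and of heart. Developing and regenerating fibres also use Casq2, and Sln is expressed in fetal mouse skeletal muscle.

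Skeletal muscle RNA was abundant on all 6 arrays. The sarcomeric actin gene Acta1 lay between 14.40 and 14.49 and Ckm, muscle creatine kinase, ranged from 13.60 to 14.10 (log2 values as deposited, as are all levels below), and the bone genes Col1a1 (13.57 to 14.28) and Ctsk (9.77 to 10.79) were also high. Values typical of silent genes were taken from 44 olfactory receptor probe sets, whose 95th percentile was 3.58. Of the heart muscle list, 4 of 8 genes, Myh6, Myl7 and Nppa among them, were at or under 3.58 on every array. Others of that list were bright, with Myl4 at 9.29 to 12.11 and Tnnt2 at 8.14 to 11.04, all named after their values were seen. Cyp24a1 itself lay near that level in both groups, at 3.23, 3.46 and 3.12 on null arrays 1 to 3 and 3.17, 3.69 and 3.17 on heterozygous arrays 1 to 3 for 1418867_at, so its values do not check the genotypes, and which part of the gene was deleted is not in the labels. A second probe set for it, 1418866_at, read 3.65, 3.20 and 3.23 in null callus against 2.71, 2.89 and 3.10 in heterozygous callus, with the null values higher. Null array 1 and heterozygous array 3 stood apart by low marrow and blood RNA and are called marrow-poor below. The mean of 10 neutrophil genes, centred over the arrays, was -2.99 and -3.55 on these arrays and 1.43 to 1.96 on the others, and that of 6 measured erythroid genes was -3.17 and -2.65 against 0.92 to 1.81. Null array 1 and heterozygous array 1 differed from the other arrays in Xist, the transcript of the inactive X chromosome, with 9.51 and 9.18 against 2.94 to 3.52 (1436936_s_at), and the labels give no sex.

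Sln, the sarcolipin gene, gave the only member probe set whose groups did not overlap. Probe set 1420884_at read 13.18, 12.32 and 11.91 on null arrays 1 to 3 and 13.49, 13.32 and 13.84 on heterozygous arrays 1 to 3. All null arrays were below all heterozygous arrays, and null array 1 was the closest to them. The means were 12.47 ± 0.65 in null callus against 13.55 ± 0.26 in heterozygous callus (SD, n = 3 each). The difference, null minus heterozygous as everywhere below, was -1.08 on the log2 scale (SE 0.33, 95% interval -1.87 to -0.29), a level 2.11-fold higher in heterozygous callus. It did not pass the test across all probe sets, with adjusted p = 0.999 and unadjusted p = 0.0152 by limma, and the exact two-sided permutation p was 0.1, the smallest that 3 arrays against 3 can give.

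The second Sln probe set, 1420883_at, had values of 6.22, 4.15 and 4.47 in null callus against 5.66, 5.08 and 7.30 in heterozygous callus. Its difference was of like size, -1.07 (SE 0.73), but null array 1 exceeded heterozygous arrays 1 and 2, and limma gave unadjusted p = 0.191. Leaving out single arrays moved it between -1.70 (without null array 1) and -0.42 (without heterozygous array 3). The centred mean of 18 measured skeletal muscle markers was -0.67, 0.31 and 0.20 in null callus against 0.19, 0.35 and -0.38 in heterozygous callus. The fit with this mean as a covariate gave -1.18 for 1420884_at, a value that does not separate fewer muscle cells from less Sln RNA per cell.

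**Figure D1:**
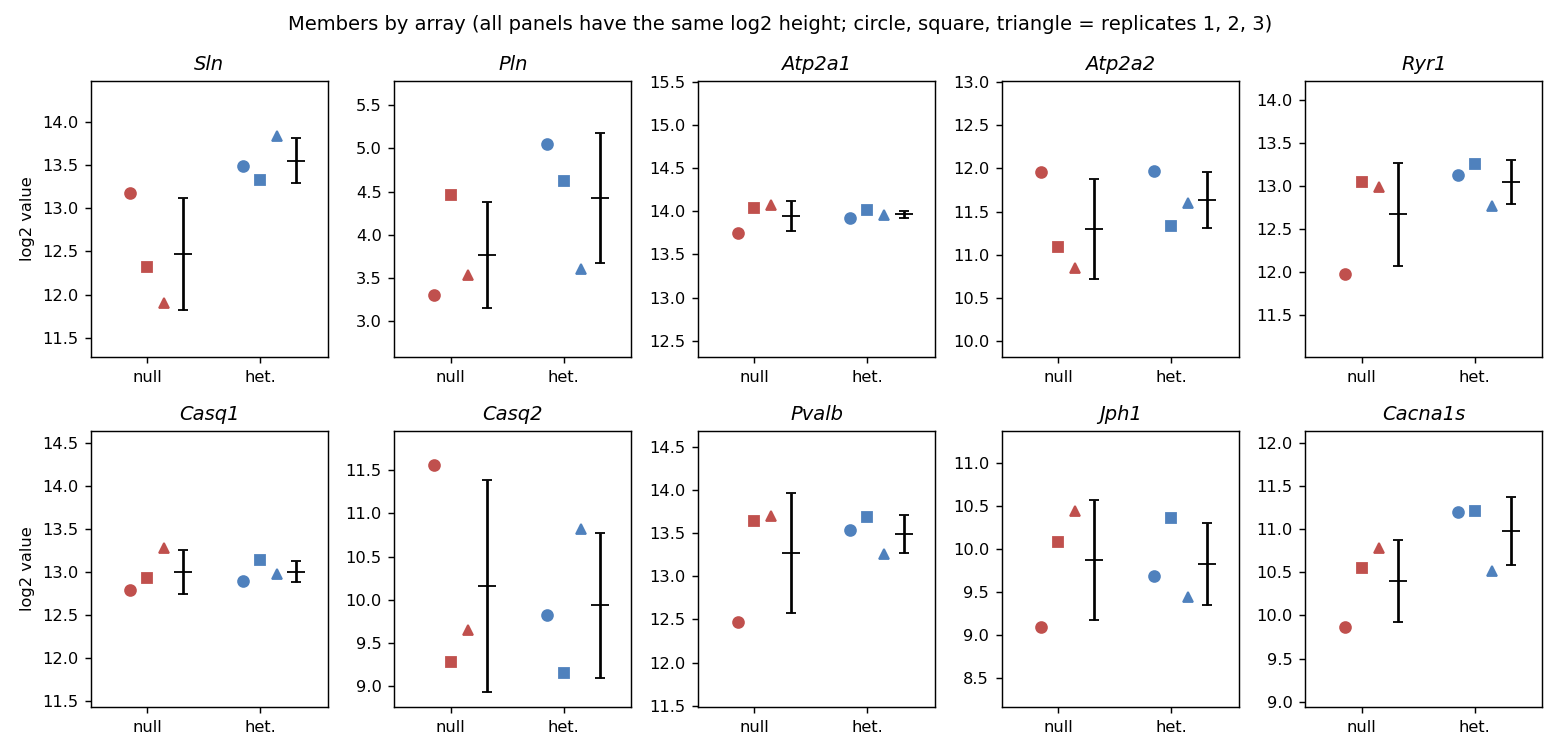
Log2 values of the probe set with the highest mean for each of the 10 members in the 3 null (red) and 3 heterozygous (blue) arrays; circles, squares and triangles are arrays 1, 2 and 3 of a group, horizontal ticks are group means and bars are 1 SD. Each panel has its own range of equal height, so distances but not positions can be set side by side; the null values of Sln all lie below the heterozygous ones, and the groups overlap in every other panel.

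Pln, whose product inhibits the slow fibre and heart pump, was close to the level of silent genes. Its brightest probe set, 1450952_at, read 3.30, 4.46 and 3.54 in null callus against 5.06, 4.62 and 3.60 in heterozygous callus. Null arrays 1 and 3 and heterozygous array 3 formed the low end and the other arrays the high end, so the groups overlapped. The difference was -0.66 (SE 0.45, 95% interval -1.73 to 0.41, unadjusted p = 0.187 by limma), and it was -1.07 without heterozygous array 3 and -0.34 without heterozygous array 1. The other Pln probe sets, 1423359_at and 1460332_at, differed by -0.15 and -0.35. Each of the 3 had values at or under 3.58.

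Atp2a1, the pump of fast fibres, varied little on this array type's scale. It read 13.75, 14.03 and 14.07 in null callus against 13.92, 14.01 and 13.95 in heterozygous callus (1419312_at). The lowest and the highest value were both in the null group. The difference of -0.01 had an SE of 0.12 and a 95% interval of -0.30 to 0.28. These values lay near the top of the scale, whose highest value was 14.49, and Acta1 and the fast myosin light chain Myl1, also near the top and named after their values were seen, spanned 0.097 and 0.13 over the arrays. Whether the signal there was saturated was not tested, so the small range does not show that the transcript was constant.

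Atp2a2, the pump of slow fibres and heart that is also the housekeeping pump of most cells, had 6 probe sets that did not share a direction. The brightest, 1416551_at, read 11.96, 11.10 and 10.85 in null callus against 11.98, 11.33 and 11.60 in heterozygous callus. Its highest values were on null array 1 and heterozygous array 1, the arrays with high Xist. Its difference was -0.34 (SE 0.31), and single arrays left out moved it from -0.67 (without null array 1) to -0.11 (without null array 3). Probe set 1452363_a_at gave the same size, -0.34 (SE 0.28). Probe sets 1427250_at, 1427251_at and 1437797_at gave 0.32, 0.21 and 0.21, and 1443551_at, at or under the level of silent genes on all 6 arrays, gave -0.01. Thus 3 of the 6 had the direction of the brightest, and no direction can be given for the gene. All 6 had overlapping groups. Smooth muscle also uses this pump. Of its markers, Acta2 lay at 9.75 to 11.88 and Myh11 at 7.28 to 8.25. Cnn1 was faint at 3.87 to 4.72, and Myocd was at or under 3.58 on 5 arrays, all named after their values were seen. The centred mean of 10 smooth muscle and pericyte genes was 0.061, 0.059 and 0.17 in null callus against -0.38, -0.0087 and 0.10 in heterozygous callus. This list includes Des, which is also among the skeletal muscle markers. The part of smooth muscle in the Atp2a2 values was not tested.

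Cacna1s, the voltage sensor, had the largest difference after Sln and Pln among the brightest probe sets. It read 9.87, 10.55 and 10.78 in null callus against 11.20, 11.21 and 10.52 in heterozygous callus (1420442_at). Heterozygous arrays 1 and 2 were above all null arrays, and heterozygous array 3 fell between null arrays 1 and 2. The difference was -0.57 (SE 0.29, 95% interval -1.28 to 0.13), with unadjusted p = 0.0960 by limma and an exact permutation p of 0.3. Leaving out single arrays moved it between -0.80 and -0.31 (the latter without null array 1), and it was -0.20 without both arrays of high Xist.

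Ryr1, the release channel, gave 11.98, 13.05 and 12.98 in null callus against 13.13, 13.25 and 12.77 in heterozygous callus on 1427306_at. Null array 1 was the lowest, and the other 5 arrays lay between 12.77 and 13.25. Its difference was -0.38 (SE 0.31), and without both arrays of high Xist, of which null array 1 is one, it was 0.0060. The second probe set, 1457347_at, read 10.19, 10.85 and 10.43 in null callus against 10.68, 11.12 and 11.00 in heterozygous callus. There only null array 2 reached into the heterozygous range, and the difference was -0.45 (SE 0.20, unadjusted p = 0.0672 by limma).

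Jph1, junctophilin 1, which ties the sarcoplasmic reticulum to the transverse tubule, differed in neither direction clearly. Its brightest probe set, 1438428_at, read 9.10, 10.08 and 10.44 in null callus against 9.68, 10.36 and 9.44 in heterozygous callus, a difference of 0.04 (SE 0.39, 95% interval -0.90 to 0.98). The second, 1421520_at, spanned 5.73 to 7.67 and differed by -0.20 (SE 0.49). Null array 1 was the lowest of the 6 on both.

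The calsequestrins, the calcium-binding proteins of the store, behaved unlike each other over the arrays. Casq1, the fast fibre form, read 12.79, 12.93 and 13.28 in null callus against 12.90, 13.13 and 12.98 in heterozygous callus (1422598_at), a difference of -0.0035 (SE 0.15, 95% interval -0.37 to 0.37). Casq2, the slow fibre and heart form, read 11.57, 9.28 and 9.65 in null callus against 9.83, 9.15 and 10.82 in heterozygous callus (1422529_s_at). Its highest values were on null array 1 and heterozygous array 3, the marrow-poor arrays, and it spanned 2.42 on the log2 scale against 0.49 for Casq1. The level of Casq1 was at the 99.8th percentile of all probe sets, and whether saturation narrowed its range was not tested. The group difference of Casq2 was 0.23 (SE 0.68, 95% interval -1.41 to 1.86), and without both marrow-poor arrays it was -0.03.

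Pvalb, the buffer of the fastest fibres, read 12.47, 13.65 and 13.70 in null callus against 13.54, 13.69 and 13.26 in heterozygous callus (1417653_at). Null array 1 was again the lowest and heterozygous array 3 the next. The difference was -0.22 (SE 0.34, 95% interval -1.04 to 0.60), and without both marrow-poor arrays it was 0.06.

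The stretches of DNA before the start sites of the calsequestrins, of Pvalb and of Cacna1s are shown as examples. Over the arrays Casq2 ran opposite to Pvalb (r = -0.94) and Cacna1s (-0.79). Pvalb ran alike with Cacna1s (0.84) and, less closely, with Casq1 (0.68). Whether letters in these windows bear on such patterns was not tested. RefSeq windows of 250 bases upstream of the start (GRCm38.p6) were held for 7 of the 10 members, 8 windows in all, with 2 for Pvalb, of which the one with a MEF2 match is printed. Sln, Atp2a2 and Jph1 had no entry. Each line runs from the 5′ to the 3′ end on the gene's own strand, and capitals mark matches to the E-box letters CANNTG, which myogenic factors such as Myod1 recognise, or to the MEF2 consensus.
Casq1, chr1:172219896-172220145 (minus strand): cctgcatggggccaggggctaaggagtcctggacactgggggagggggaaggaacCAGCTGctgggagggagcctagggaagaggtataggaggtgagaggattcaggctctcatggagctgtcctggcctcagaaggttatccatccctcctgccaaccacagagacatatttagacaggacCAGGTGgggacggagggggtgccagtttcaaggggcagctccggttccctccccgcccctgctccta
Casq2, chr3:102086165-102086414 (plus strand): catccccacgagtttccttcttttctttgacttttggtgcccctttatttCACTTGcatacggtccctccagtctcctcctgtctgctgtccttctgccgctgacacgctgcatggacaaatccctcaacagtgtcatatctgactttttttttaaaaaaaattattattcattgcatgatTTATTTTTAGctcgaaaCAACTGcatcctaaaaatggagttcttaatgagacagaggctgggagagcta
Pvalb, chr15:78206401-78206650 (minus strand): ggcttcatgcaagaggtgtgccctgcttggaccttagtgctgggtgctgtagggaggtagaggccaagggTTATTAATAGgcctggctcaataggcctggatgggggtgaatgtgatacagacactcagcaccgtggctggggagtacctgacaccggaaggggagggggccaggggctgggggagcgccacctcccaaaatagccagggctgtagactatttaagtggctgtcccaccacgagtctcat
Cacna1s, chr1:136052561-136052810 (plus strand): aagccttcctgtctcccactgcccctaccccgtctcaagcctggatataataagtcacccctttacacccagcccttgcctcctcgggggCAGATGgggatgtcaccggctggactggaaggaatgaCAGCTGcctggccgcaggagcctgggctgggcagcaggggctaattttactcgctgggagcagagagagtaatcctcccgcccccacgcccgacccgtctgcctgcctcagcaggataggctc
Casq1 has E-boxes 195 and 67 bases before the start, and Cacna1s has them 160 and 123 bases before it; in each gene 1 of them carries the letters CAGCTG. Casq2 has E-boxes at 200 and 52 bases and a MEF2 match at 69 bases, and the printed Pvalb window has a MEF2 match at 180 bases and no E-box. Over the 8 windows, 6 held an E-box, against 66.2% of the 32851 windows of the RefSeq table, and 3 held CAGCTG, which counts as an E-box too, against 13.0%. The MEF2 consensus matched 2 of the 8 against 2.92%. The CArG box of serum response factor matched 0 against 1.47%, and a direct repeat element of the vitamin D receptor matched 0 against 0.0396%. Both strands were searched, and a match describes letters in these windows only.

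Over all members, no probe set passed the adjusted threshold of 0.05: 0 of 20, where the background over all probe sets was 0% (0 of 45037, lowest adjusted p = 0.775 by limma). At an unadjusted p under 0.05 there was 1 of 20, the brighter Sln probe set, against 3.69% of all probe sets (1660), a share close to the background. Groups without overlap were seen for 1 of 20, the same probe set, against 8.95% of all (4031). By direction, 15 of the 20 were lower and 5 higher in null callus, and by the brightest probe set of each gene 8 were lower and 2 higher. Across all 18193 genes, represented in the same way, 50.3% were lower. Lists of skeletal muscle and sarcomere genes leaned the same way, so the direction is not particular to the members. Of the skeletal muscle markers 14 of 18 were lower (median -0.15), of the fast fibre sarcomere genes 10 of 11 and of the slow ones 9 of 10. The heart muscle list (3 of 8 lower, median 0.11) and the smooth muscle and pericyte list (3 of 10 lower, median 0.15) leaned the other way. The median difference was -0.28 over the 10 genes and -0.0017 over all genes. The count of 8 became 6 after quantile normalization, 6 without null array 1 and 5 without both arrays of high Xist. For all 20 probe sets the range within the null group exceeded the group difference. In bulk callus RNA, fewer muscle cells and less of a transcript per cell cannot be told apart.

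**Figure D2:**
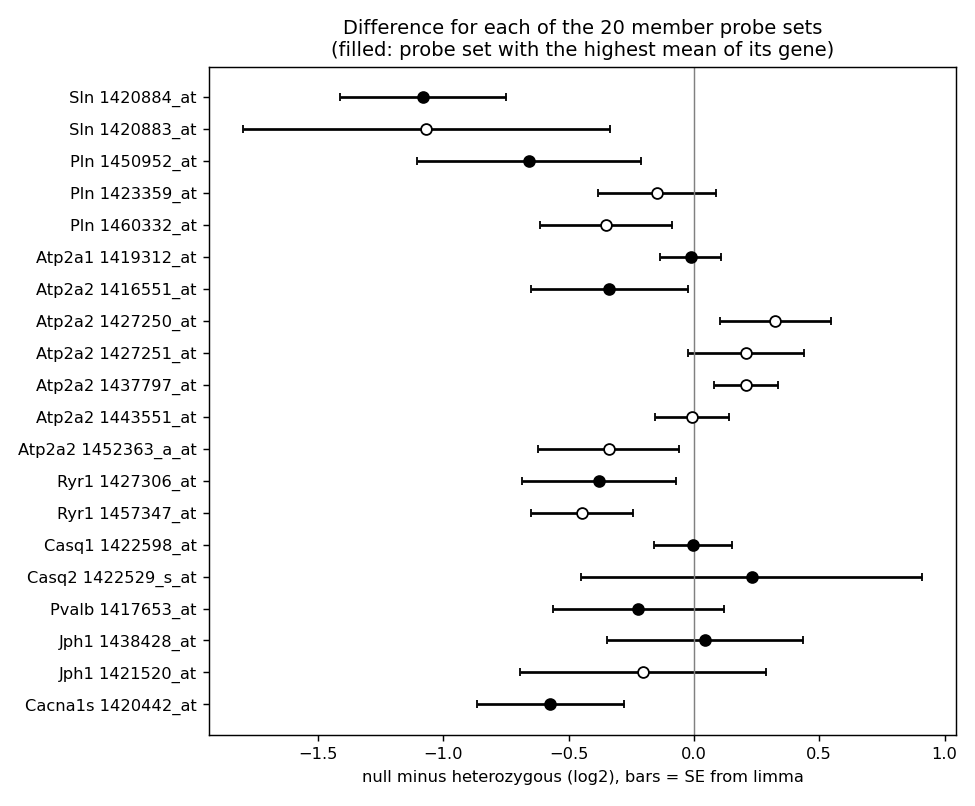
Difference of the log2 means, null minus heterozygous, for each of the 20 member probe sets with its SE from limma (3 arrays against 3); filled points are the probe set with the highest mean of its gene. The Sln probe sets sit farthest to the left, followed by the brightest Pln probe set, Cacna1s and Ryr1. Atp2a1 and Casq1 lie at 0, and the Atp2a2 probe sets on both sides of 0.

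Fast and slow fibre forms were set against each other within each array, and each series was centred on its mean. Such a difference does not remove muscle content for the pumps, since Atp2a2 is also made by other cells and Atp2a1 lay near the top of the scale. Atp2a2 minus Atp2a1 was 0.70, -0.45 and -0.73 in null callus against 0.54, -0.19 and 0.14 in heterozygous callus. Null arrays 1 to 3 spanned all the heterozygous ones, and the group difference was -0.32 (exact permutation p = 0.6). Casq2 minus Casq1 was 1.73, -0.70 and -0.68 in null callus against -0.12, -1.03 and 0.80 in heterozygous callus. Both marrow-poor arrays were at the top, the range of 2.76 equals a 6.76-fold change of the ratio between arrays, and the group difference was 0.23 (exact permutation p = 0.8). Whether the signal of Casq1, also high on the scale, was saturated was not tested. For the inhibitors, Sln minus Pln differed by -0.42 between the groups (exact permutation p = 0.5), but Pln was at or under 3.58 on null arrays 1 and 3, so this value rests in part on background and no order of the arrays is read from it. Adjusted over these 3 pairs, each p was 0.8. In all 3 the group difference was smaller than the range within the null group, and the smallest p that the design allows is 0.1.

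The array pattern of Casq2 ran beside the mean of developing muscle genes, though not beside each of them. The centred mean of 12 genes of developing and regenerating muscle was 1.16, -0.93 and -0.66 in null callus against 0.09, -0.72 and 1.05 in heterozygous callus. Embryonic myosin Myh3, one of them, read 12.63, 10.21 and 10.35 in null callus against 10.58, 9.96 and 11.97 in heterozygous callus. The genes of this list did not share a pattern. Ncam1 was highest on heterozygous array 2, at 9.66. Myf6 read 11.06 on null array 1, below its 11.55 to 11.86 in heterozygous callus. Both were named after their values were seen. The list mean and Myh3 were highest on null array 1 and heterozygous array 3, as was Casq2, while Pvalb and Ryr1 were lowest there. The mean of 11 fast fibre sarcomere genes was -0.49 and -0.25 on those arrays and 0.15 to 0.21 on the others. The mean of 10 slow fibre sarcomere genes was -0.27, 0.23 and -0.36 in null callus against 0.64, 0.48 and -0.72 in heterozygous callus. Its members did not share a pattern. The slow myosin Myh7 was lowest on the marrow-poor arrays, at 7.56 and 6.75, and highest at 11.90 on heterozygous array 1. The slow troponin Tnni1 read 12.23, 10.47 and 10.13 in null callus against 11.46, 10.80 and 11.43 in heterozygous callus, and Tnnt1 read 11.77, 10.44 and 10.14 against 11.86, 11.26 and 11.36. Both, named after their values were seen, were lowest on null arrays 2 and 3, so that slow fibre genes lay on both sides of the Casq2 pattern. Which of these lists, or the marrow content that moves with them, bears on the members was not tested.

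**Figure D3:**
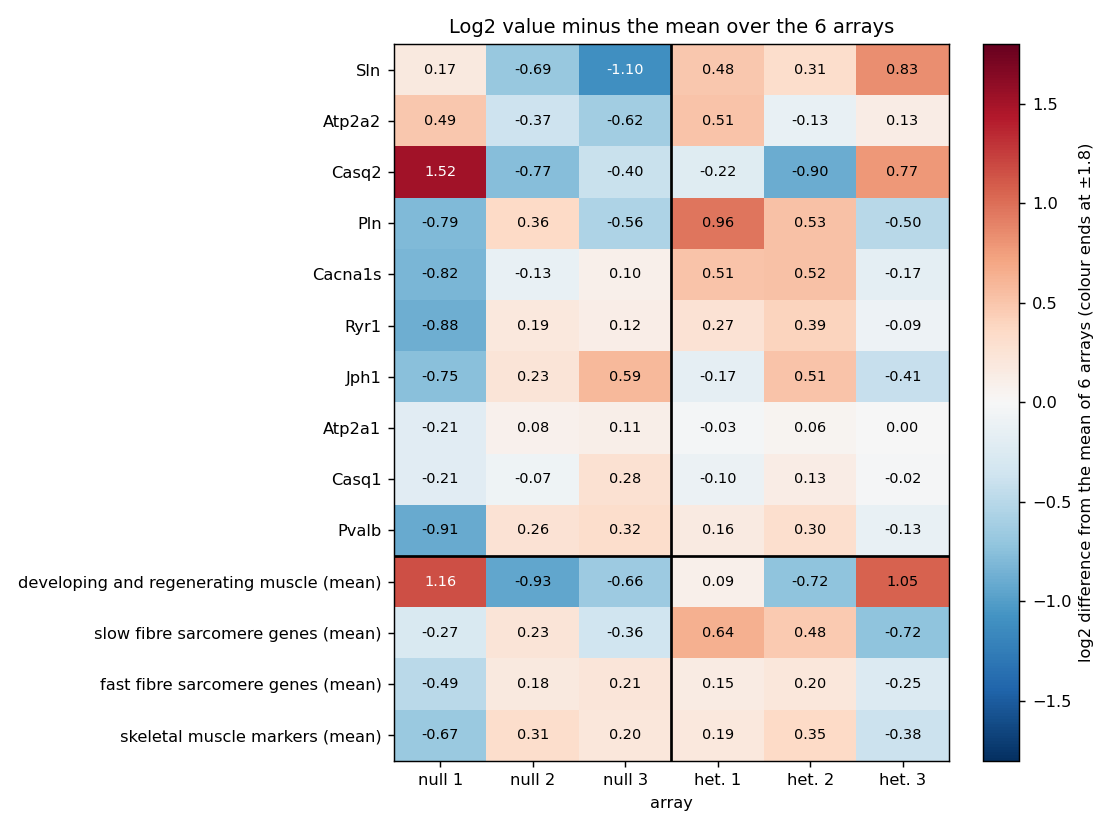
Log2 value minus the mean over the 6 arrays for the brightest probe set of each member (upper rows) and the mean of such values over genes of 4 muscle lists (lower rows), in 3 null and 3 heterozygous arrays; red is above and blue below the mean of the gene. Casq2 and the developing muscle list are high on null array 1 and heterozygous array 3, where Ryr1, Jph1 and Pvalb are low, and Sln is low on null arrays 2 and 3.

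Genes with the array pattern most like each member were listed by Pearson's r over the 6 arrays, among genes with a mean above the median level. The list is a description with no test. All points share the same arrays and so the same marrow and muscle content. For Sln they were Creld1 (r = 0.990), Rras (0.989) and the myogenic factor Myod1 (0.987). Myod1 read 9.34, 8.63 and 7.79 in null callus against 9.89, 9.61 and 10.10 in heterozygous callus, a difference of -1.28 (SE 0.38). Its groups did not overlap, as for 8.95% of all probe sets. Because it was picked here for its likeness to Sln, whose groups do not overlap, this is no separate result. For Atp2a1 they were Dpy19l4 (0.992), Trappc6b (0.992) and the fast myosin Myh4 (0.982). Pvalb was most like Bsg, Ndufab1 and Cox11 (0.997, 0.997 and 0.996), of which Ndufab1 and Cox11 belong to the mitochondrial respiratory chain and its assembly, and Cacna1s was most like Asnsd1, Ybx3 and Ndufs4 (0.997, 0.994 and 0.993). The closest to Ryr1 were Zbed4, Rora and Col22a1 (0.999, 0.998 and 0.995), and to Casq2 2810025M15Rik, Cdk5r1 and Esyt1 (0.999, 0.998 and 0.998). Casq1 was nearest to Sgk1 (0.990), Jph1 to 6430571L13Rik (0.999), Pln to Ipo5 (0.994) and Atp2a2 to Pvr (0.976).

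The wider calcium handling list held 89 other genes in 8 roles, of which 80 were measured by a probe set naming 1 gene. By the brightest probe set, 45 were lower and 35 higher in null callus, 0 passed the adjusted threshold, and the median difference was -0.02. At an unadjusted p under 0.05 by limma there were 7 lower genes, 8.75% of the 80, against 2.43% of all genes in that direction. There were 0 higher genes at that p, against 2.06% of all genes. The list was chosen with earlier results of these data known, so the larger share of lower genes is no independent result. Among the 7, Slc24a2 had all its values at or under the level of silent genes.

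The dihydropyridine receptor subunits and partners held 3 of those 7 among 6 measured genes, where 2.43% of all genes were lower at that p. Of the 6, 5 were lower and 1 higher, with a median of -0.37. Rrad, a small GTP-binding protein that binds the channel's beta subunits and restrains the channel, read 6.75, 6.88 and 6.29 in null callus against 9.06, 8.74 and 7.76 in heterozygous callus. All null arrays were below all heterozygous ones, and the difference was -1.88 (SE 0.35, 95% interval -2.72 to -1.04, unadjusted p = 0.00133 and adjusted p = 0.999 by limma). Cacnb1, the beta subunit itself, read 9.06, 9.23 and 9.18 in null callus against 9.77, 9.67 and 9.63 in heterozygous callus. Its groups were also apart, its 4 probe sets shared a direction, and the difference was -0.53 (SE 0.10, unadjusted p = 0.00164). The third was the gamma subunit Cacng1 (-0.50, SE 0.16), named after its values were seen. Rrad and Cacnb1 were named for the lowest p of this role, so their separate groups are no further result. Groups without overlap were seen for 8.95% of all probe sets.

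Among release channels and their partners 3 of 12 were lower and 9 higher. Jsrp1, a junctional protein that binds the voltage sensor and calsequestrin, differed by -0.36 (SE 0.14, unadjusted p = 0.0422 by limma), and the inositol trisphosphate receptor Itpr3 by 0.35 (SE 0.15, unadjusted p = 0.0618). The triad membrane genes had 9 of 12 lower. The trimeric cation channel Tmem38b of the reticulum read 9.62, 9.79 and 9.58 in null callus against 10.27, 10.04 and 10.61 in heterozygous callus. Its groups were apart, as for 8.95% of all probe sets, and it was named for the lowest p of its role. Its 4 probe sets shared a direction, and the difference was -0.64 (SE 0.16, unadjusted p = 0.00685 by limma). Dysferlin (Dysf), of membrane repair, differed by -0.41 (SE 0.13, unadjusted p = 0.0151).

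The remaining roles stayed near 0 in their medians. Pumps, pump regulators and exchangers had 7 of 12 lower (median -0.02). Of these, Slc24a2 differed by -0.33, but all its values were at or under the level of silent genes and 1 of its 2 probe sets had that direction. The exchanger Slc8a3 differed by 0.30 (SE 0.18), shared by 1 of 2 probe sets. Store-operated entry had 4 of 8 lower, with the store sensor Stim2 at -0.23 (SE 0.12, 1 of 2 probe sets) and the channel Trpc1 at 0.18 (SE 0.13). Mitochondrial uptake had 4 of 5 lower, with the uniporter regulator Smdt1 at -0.22 (SE 0.11) and the pore Mcu at -0.17 (SE 0.22). Cytosolic buffers and sensors were split 4 to 4, with S100a1 at -0.38 (SE 0.26) and Calb2, near the level of silent genes, at 0.13 (SE 0.13). Calcineurin and CaMKII signalling had 9 of 17 lower, with the kinase Camk2a at 0.61 (SE 0.44, 5 of 6 probe sets) and the transcription factor Nfatc4 at 0.29 (SE 0.23, 2 of 4 probe sets). None of the genes named for these roles except Slc24a2 had an unadjusted p under 0.05.

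**Figure D4:**
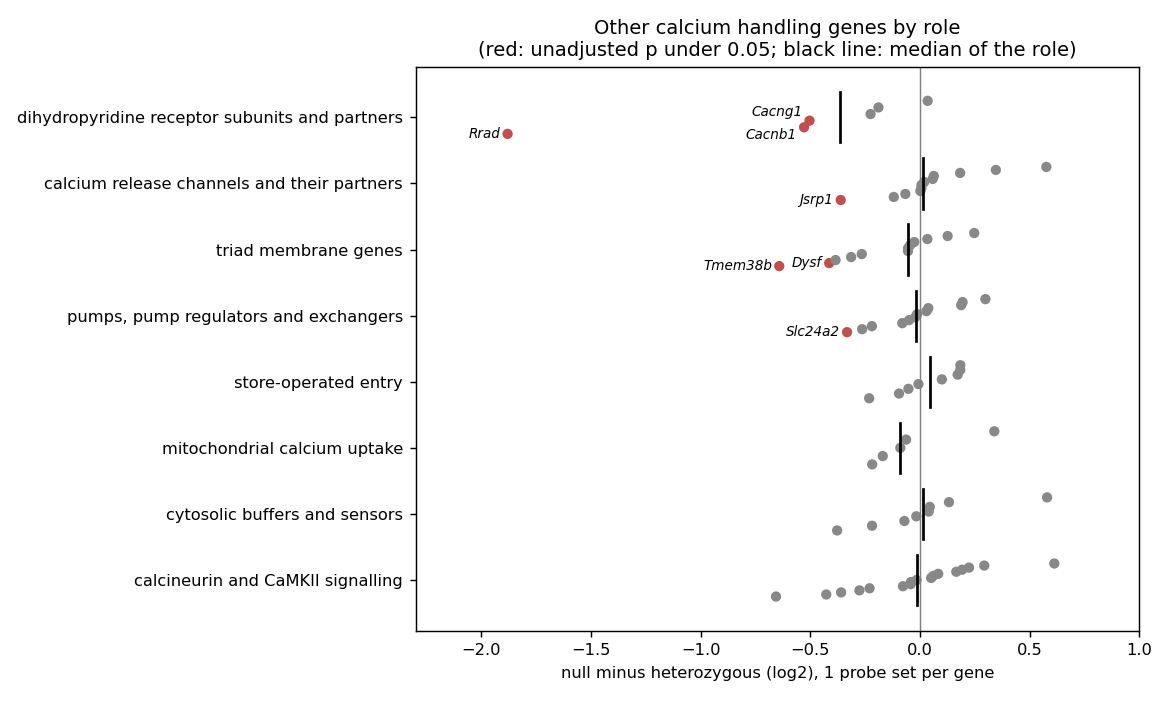
Difference of the log2 means, null minus heterozygous, for the 80 measured genes of the wider list, 1 point per gene by role; red points have an unadjusted p under 0.05 by limma and black lines are the medians of each role. The 7 red points are all on the lower side, with Rrad at -1.88 the farthest, and the medians of the other 7 roles lie between -0.09 and 0.05.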

How the data were processed

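The deposited table holds 1 value per probe set and array on the log2 scale (Affymetrix Mouse 430_2), as judged from its range of 1.65 to 14.49. Not given in the sources used here is what the authors did for background, summarisation and normalisation. Callus had been stored in RNAlater and RNA isolated with Trizol and a column, per the labels' protocols. Of 45101 probe sets, 64 controls were left out. Symbols came from the platform annotation, with 34945 probe sets naming 1 gene, 932 several and 9160 none. Where a gene had several probe sets, the one with the highest mean stood for it in counts by gene (18193 genes).

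Each probe set was tested in R 4.3.3 with limma 3.58.1 (functions lmFit and eBayes, two-sided, 4 residual and 2.50 prior degrees of freedom), with Benjamini-Hochberg adjustment over 45037 probe sets. The number of arrays limits the precision: the median SE was 0.15. The same steps were tested on simulated data. Array medians lay between 4.55 and 4.59, and r between arrays across probe sets between 0.970 and 0.991. Replicate numbers follow the order of the samples and pair nothing.

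The members, the lists and the rules were chosen with earlier results of these data known. In each role of the wider list, the 2 genes with the lowest unadjusted p were named, and like genes were the 3 per member with the highest r among genes whose mean was above the median level. Level markers and the arrays described as marrow-poor or high in Xist were named after values were seen. Other settings were quantile normalization, centring on medians, a prior with intensity trend and robust estimation, weights per array, 1 probe set per gene, probe sets at or above the median level only, muscle or marrow scores as covariates, and leaving out arrays. Protein sequences were not used here.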

Additional observations from a re-analysis of the deposited data

How the results depend on the processing

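No member probe set reached an adjusted p under 0.05 under any of the 16 alternatives (lowest 0.304), and limma called 1 of all probe sets with the muscle score and 1 with the marrow score as a covariate. The brighter Sln probe set stayed lower in null in all 16 (-1.47 to -0.80, unadjusted p from 0.000270 to 0.0482). Member probe sets at an unadjusted p under 0.05 numbered 4 with array weights (10.3% of all probe sets), 3 with the muscle score (7.07%) and 7 with the marrow score (7.78%). They numbered 5 without both marrow-poor arrays (7.67%) and 2 without both arrays of high Xist (4.09%), an alternative chosen after seeing the data. Leaving out single arrays gave 1 to 3, where the share of all probe sets ran from 2.33% to 6.04%. There were 3 without null array 1 (5.25%) and 3 without heterozygous array 3 (6.04%). Without both arrays of high Xist, 5 members were lower in null, and leaving out single arrays gave 6 to 9.

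Small differences changed sign. Quantile normalization gave 0.012 for Atp2a1, 0.016 for Atp2a2 1443551_at and 0.013 for Casq1. Array weights gave 0.068 for Atp2a1, 0.16 for Casq1 and -0.024 for Casq2, and the muscle score 0.011, 0.022 and -0.0054. Without both marrow-poor arrays, Pln 1423359_at was 0.12, Atp2a1 0.082, Casq1 0.088, Casq2 -0.027, Pvalb 0.058, Jph1 1421520_at 0.26 and Casq2 minus Casq1 -0.11. Without both arrays of high Xist, Pln 1423359_at was 0.16, Pln 1460332_at 0.047, Atp2a1 0.068, Ryr1 1427306_at 0.0060, Casq1 0.048, Casq2 -0.52, Pvalb 0.20, Jph1 1421520_at 0.50 and Casq2 minus Casq1 -0.57. With other Atp2a2 probe sets, Atp2a2 minus Atp2a1 was 0.34 (1427250_at), 0.22 (1427251_at), 0.22 (1437797_at) and 0.0055 (1443551_at). Leaving out single arrays gave ranges that crossed 0 for Pln 1423359_at (-0.33 to 0.063), Atp2a1 (-0.072 to 0.087), Atp2a2 1427251_at (-0.047 to 0.36), Atp2a2 1443551_at (-0.13 to 0.089), Casq1 (-0.14 to 0.10), Casq2 (-0.47 to 0.67), Pvalb (-0.44 to 0.18), Jph1 1438428_at (-0.24 to 0.43), Jph1 1421520_at (-0.58 to 0.39), Casq2 minus Casq1 (-0.57 to 0.69) and Sln minus Pln (-1.01 to 0.14). The cause was not tested.

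In the wider list, genes lower at an unadjusted p under 0.05 numbered 5 to 8 when single arrays were left out. Over all probe sets, 2.33% to 6.04% had such a p in those fits, in either direction. Rrad, Cacnb1 and Tmem38b had such a p in all 16 alternatives, with an adjusted p of 0.407 or more by limma. They were named for a low p, and the alternatives reuse the same arrays, so this is no further result. With array weights 10 genes were lower and 5 higher at an unadjusted p under 0.05, with the muscle score 8 and 6, and with the marrow score 9 and 4. There were 9 and 3 without both marrow-poor arrays, and 7 and 3 without null array 1 (5.25% of all probe sets at that p in the last, the others as above). Those shares count both directions and every probe set, so they do not match counts by direction with 1 probe set per gene. No paired analysis was possible because the labels give no shared replicate numbers. Pseudocounts do not apply to log2 values.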

Other observations

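Among the 12 genes of developing and regenerating muscle, 7 were lower and 5 higher in null callus. The myogenic factors did not share a pattern. Myf6, which is kept on in mature fibres, read 11.06, 11.01 and 10.32 in null callus against 11.81, 11.55 and 11.86 in heterozygous callus, a difference of -0.94 (SE 0.22, unadjusted p = 0.00448 by limma). It and Myod1, with a difference of -1.28 (SE 0.38), were the 2 genes of the 12 at an unadjusted p under 0.05, where 2.43% of all genes were lower at that p. Their groups did not overlap, as for 8.95% of all probe sets, and the adjusted p was 0.999 for both. Myog, which acts later in the differentiation of myoblasts, read 10.33, 7.14 and 7.85 in null callus against 8.90, 7.21 and 10.10 in heterozygous callus, a difference of -0.30 (SE 1.01). Chrna1, the alpha subunit of the muscle acetylcholine receptor, read 11.50, 10.40 and 9.68 in null callus against 11.41, 11.29 and 11.52 in heterozygous callus. Its low values were on null arrays 2 and 3, the arrays where Sln was lowest, and its difference was -0.88 (SE 0.43, unadjusted p = 0.0813 by limma). The fast fibre sarcomere list had 10 of 11 and the slow fibre list 9 of 10 genes lower in null, with medians of -0.06 and -0.25 and 0 genes at an unadjusted p under 0.05 in either list.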
